A study of Mus musculus with 18 samples.

Results

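The genes described here encode the mitochondrial ribosomal proteins, taken as every row of the deposited mRNA table whose symbol begins with Mrpl or Mrps followed by a digit. There were 78 such genes among 22298 in the table, 49 of them named Mrpl for the large subunit and 29 named Mrps for the small subunit. They were measured in total RNA from whole testis of adult C57BL/6 mice. One group was wild type and the other carried a knock-in allele of Taf7l, an X-linked gene for a germ-cell relative of the TFIID subunit Taf7. Each genotype had 3 libraries, numbered 1 to 3. The labels name 18 samples, of which the 12 from isolated germ cells (pachytene spermatocytes, round spermatids) were not analysed here. Which residue the knock-in alters is not given in the labels. No label ties a library to an animal of its own, so a p-value here reflects only how these libraries vary, which may be technical variation.

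Mitochondria keep a ribosome of bacterial ancestry that translates only the proteins encoded in mitochondrial DNA, which are core subunits of the respiratory chain and of ATP synthase. Its RNAs come from mitochondrial DNA, but all of its proteins are encoded in the nucleus, made in the cytosol and imported. Some of these proteins have counterparts in bacterial ribosomes, whereas others exist only in mitochondria. In the testis, meiotic and later germ cells rely heavily on mitochondria, and the sperm midpiece is wrapped in them.

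Library totals ran from 17431309 to 21446420 counts, and the 78 genes together took 0.188% to 0.204% of them. Every library held all 78 genes, at 26 to 2740 counts each, and all 78 were among the 15787 genes tested. The labelled tissue was checked with 8 markers for each of spermatogonia, spermatocytes, round spermatids and elongating spermatids, and each was above 0 in every library. Of 5 epididymal markers, Lcn5 and Lcn8 were at 0 throughout, Defb15 had 0 to 4 counts and Rnase10 had 120 to 180. Crisp1 had 225 counts in wild-type library 2 and 173 in knock-in library 1, against 1 to 3 in the others. Leaving out either of those 2 libraries gave a median log2 fold change over the 78 genes of 0.091 or 0.079, against 0.067 with all. Taf7l itself had 507, 551 and 531 counts in wild type and 472, 525 and 581 in knock-in, which does not check the genotype labels because a knock-in allele can still be transcribed. Whole testis is a mixture, and in such bulk samples fewer cells of a type cannot be told apart from less RNA per cell.

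Levels of the genes were compared with each other by FPKM, which counts reads per length of transcript. Mean FPKM over the 6 libraries had a median of 14.3 over the 78 genes, and 63 of the genes lay between 5 and 30. The span was 93.2-fold. Mrpl51, a large-subunit protein found only in mitochondrial ribosomes, was the most abundant. Its FPKM was 92.2, 94.2 and 89.1 in wild type and 95.5, 93.8 and 94.1 in knock-in. The wild-type and knock-in values of Mrpl51 overlapped and lay far above the next gene, Mrpl30, at a mean FPKM of 51.1. Mrpl30 and Mrpl24, at 50.7, did not differ beyond their spread between libraries. Mrps18b, Mrpl12 and Mrpl54 followed, at mean FPKM of 45.7, 44.3 and 37.3.

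The lowest FPKM belonged to Mrps25, Mrpl15 and Mrps26. Mrps25 had an FPKM of 0.95, 1.26 and 0.89 in wild type and 0.95, 1.04 and 0.91 in knock-in. Mrpl15, the counterpart of a bacterial large-subunit protein, had 1.21, 0.71 and 0.96 in wild type and 1.21, 1.9 and 1.2 in knock-in. These genes could not be ordered among themselves, since their libraries overlapped. Counts were 122 to 183 for Mrps25 and 99 to 176 for Mrps26, above the 26 to 59 of Mrpl15. The transcript lengths implied by counts and FPKM were 7856 bp for Mrps25 and 5526 bp for Mrps26. The latter exceeds the whole RefSeq span of Mrps26 (chr2:130563757-130565394), so its low FPKM, and its rank, may come from the length used. Subunits of a single ribosome differed widely in RNA per length, while the order of the genes was nearly the same in both genotypes (Spearman rho 0.98 across the 78 genes, which share libraries and are not independent replicates).

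**Figure D1:**
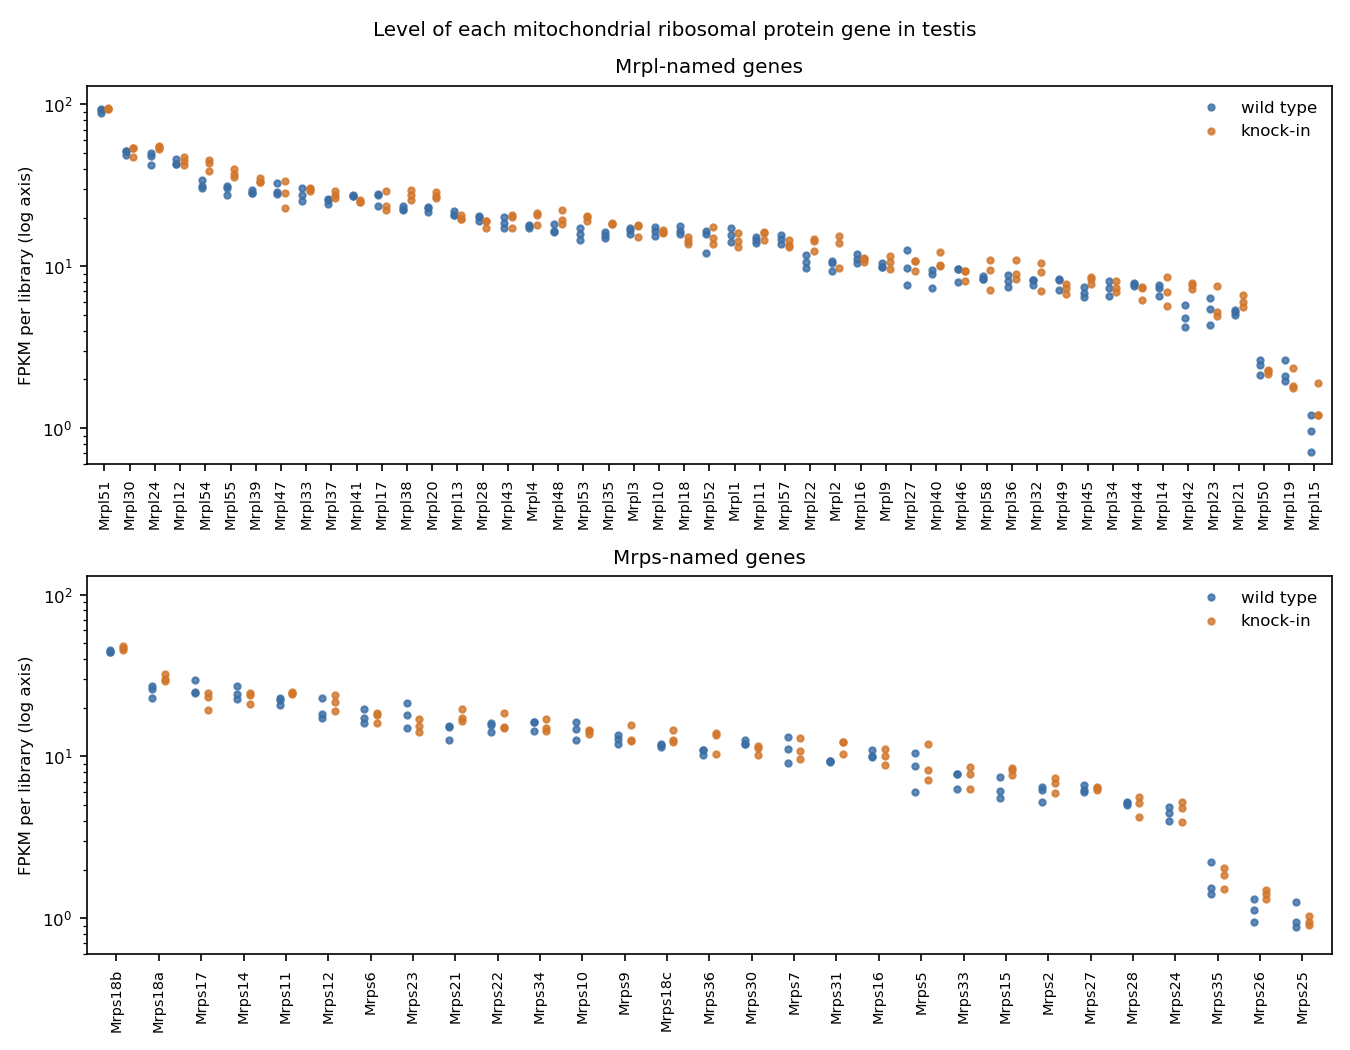
FPKM of each mitochondrial ribosomal protein gene in the 6 libraries (log axis), with Mrpl-named and Mrps-named genes in separate panels. Each library is 1 point, coloured by genotype. Mrpl51 stands highest at a mean of 93.2 and Mrps25 lowest at 1.00, and the points of both genotypes lie close together for most genes.

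Promoters were examined for shared letters because genes of the respiratory chain and mitochondrial translation are known to carry sites for NRF1, ETS-family factors such as GABPA, and YY1. RefSeq sequence (GRCm38.p6) from 250 bases before to 50 after the start was at hand for 69 of the 78 genes. Both strands were searched. The ETS core CCGGAAG was in 37.7% of these promoters and in 17.1% of the promoters of tested genes. The YY1 word AAGATGGC was in 17.4% against 4.48%, and the NRF1 core CGCATGCG in 10.1% against 3.8%. Over all 27025 genes with a promoter entry the shares were 9.93% for the ETS core, 3.19% for the YY1 word and 2.07% for the NRF1 core. The TATA word TATAAA was in 7.25% against 9.69% of tested genes, and the CRE word TGACGTCA in 2.9% against 3.2%. In all, 38 of the 69 promoters held an ETS, YY1 or NRF1 word and 28 held none of the 5 words. These shares describe letters in a window, with no test, and a match is not a bound site.

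The sequences below are 250 bases upstream of the start, 5′ to 3′ on the strand of the gene, with matched words in capitals. They show the most abundant gene (Mrpl51, chr6:125191950-125192199, plus strand, an ETS core), a gene with an NRF1 core whose genotypes did not overlap (Mrpl39, chr16:84735245-84735494, minus strand), a gene with ETS cores on both strands (Mrpl53, chr6:83108858-83109107, plus strand), a gene with both an ETS and an NRF1 core (Mrpl17, chr7:105811088-105811337, minus strand), and a gene with no matched word (Mrpl55, chr11:59202236-59202485, plus strand).
Mrpl51: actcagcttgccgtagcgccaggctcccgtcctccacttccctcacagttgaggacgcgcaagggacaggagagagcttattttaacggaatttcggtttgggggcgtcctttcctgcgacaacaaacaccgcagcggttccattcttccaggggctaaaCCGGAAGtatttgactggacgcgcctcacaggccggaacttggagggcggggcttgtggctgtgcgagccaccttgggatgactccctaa
Mrpl39: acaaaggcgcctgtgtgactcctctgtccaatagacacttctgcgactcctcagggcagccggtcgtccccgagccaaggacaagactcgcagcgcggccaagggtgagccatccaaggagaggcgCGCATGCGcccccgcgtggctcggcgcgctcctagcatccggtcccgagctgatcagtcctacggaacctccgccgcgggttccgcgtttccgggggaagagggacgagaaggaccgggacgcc
Mrpl53: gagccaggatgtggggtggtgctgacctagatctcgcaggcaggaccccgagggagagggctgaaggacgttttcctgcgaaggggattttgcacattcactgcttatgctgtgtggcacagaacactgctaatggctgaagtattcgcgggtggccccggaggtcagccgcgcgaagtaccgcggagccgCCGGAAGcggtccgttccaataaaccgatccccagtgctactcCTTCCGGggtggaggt
Mrpl17: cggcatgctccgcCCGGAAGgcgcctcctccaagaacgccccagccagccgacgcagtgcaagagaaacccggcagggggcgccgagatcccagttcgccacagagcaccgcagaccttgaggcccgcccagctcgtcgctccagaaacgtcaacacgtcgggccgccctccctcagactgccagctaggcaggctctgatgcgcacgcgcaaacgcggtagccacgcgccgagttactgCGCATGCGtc
Mrpl55: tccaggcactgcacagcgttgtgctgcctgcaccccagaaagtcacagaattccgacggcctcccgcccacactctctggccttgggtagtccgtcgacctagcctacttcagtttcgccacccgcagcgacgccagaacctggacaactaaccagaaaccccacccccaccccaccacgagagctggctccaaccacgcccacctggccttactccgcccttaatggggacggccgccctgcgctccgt

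Between genotypes the 78 genes differed little. Counts were scaled to library size as CPM, each count over its library's TMM-scaled total, and tested with edgeR's quasi-likelihood test, and a gene was called changed at a Benjamini-Hochberg adjusted p under 0.05 over all tested genes. By this rule 0 of the 78 genes were called, against 0.982% of all tested genes (155 of 15787; 0.88% higher in knock-in). At an unadjusted p under 0.05, 14 of the 78 were higher in knock-in and 0 were lower. That is 17.9% on the higher side against 7.83% of all genes, and none on the lower side against 5.09%. DESeq2 called 3 of the 78, each higher, against 4.11% of the genes to which it gave an adjusted p. The fitted log2 fold change of knock-in over wild type was above 0 for 54 of the 78 genes, or 69.2%, against 50.6% of all tested genes. It had a median of 0.07 against 0.00 for all tested genes. It ran from -0.19 for Mrps17 to 0.61 for Mrpl42, and 38 genes lay within 0.1 of no difference.

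All 3 knock-in libraries lay above all 3 wild-type libraries for 21 of the 78 genes, or 26.9%, against 10.1% of all tested genes. They lay below for Mrpl44, Mrpl28 and Mrpl41, 3 of the 78, against 8.41%. The libraries overlapped for the other 54. Summed over the 78 genes, the level was 1926, 1905 and 1881 CPM in wild type and 2015, 1996 and 2054 in knock-in. These sums did not overlap, and their means were 1904 ± 22.3 and 2022 ± 29.6 (SD, n = 3 each). The summed markers of peritubular myoid cells, which surround the tubules, also did not overlap, at 193.5 to 222.1 CPM in wild type and 229.4 to 262.8 in knock-in, with 0 of 6 markers called and a median log2 fold change of 0.31. Leydig cell markers summed to 1242 to 1467 and 1435 to 1475. Spermatocyte markers summed to 5058 to 5553 and 4584 to 5293. Most of that sum was Ldhc (median CPM 4044), 0 of the 8 spermatocyte markers were called, and their median log2 fold change was 0.02. Elongating spermatid markers summed to 11810 to 13810 and 11490 to 14100, which overlapped. Of the 8, 2 were called higher (Prm2 and Smcp) and 0 lower, and the median log2 fold change was 0.27. Not all of the list rose. Unscaled counts of Prm1 ran from 59687 to 77580 in wild type and from 50090 to 68378 in knock-in. Those of Akap4 ran from 59377 to 65793 and from 53878 to 64525. Of the 8 round spermatid markers, 1 rose (Spaca4), with a median of 0.01. The part of these cell types in the difference was not tested.

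**Figure D2:**
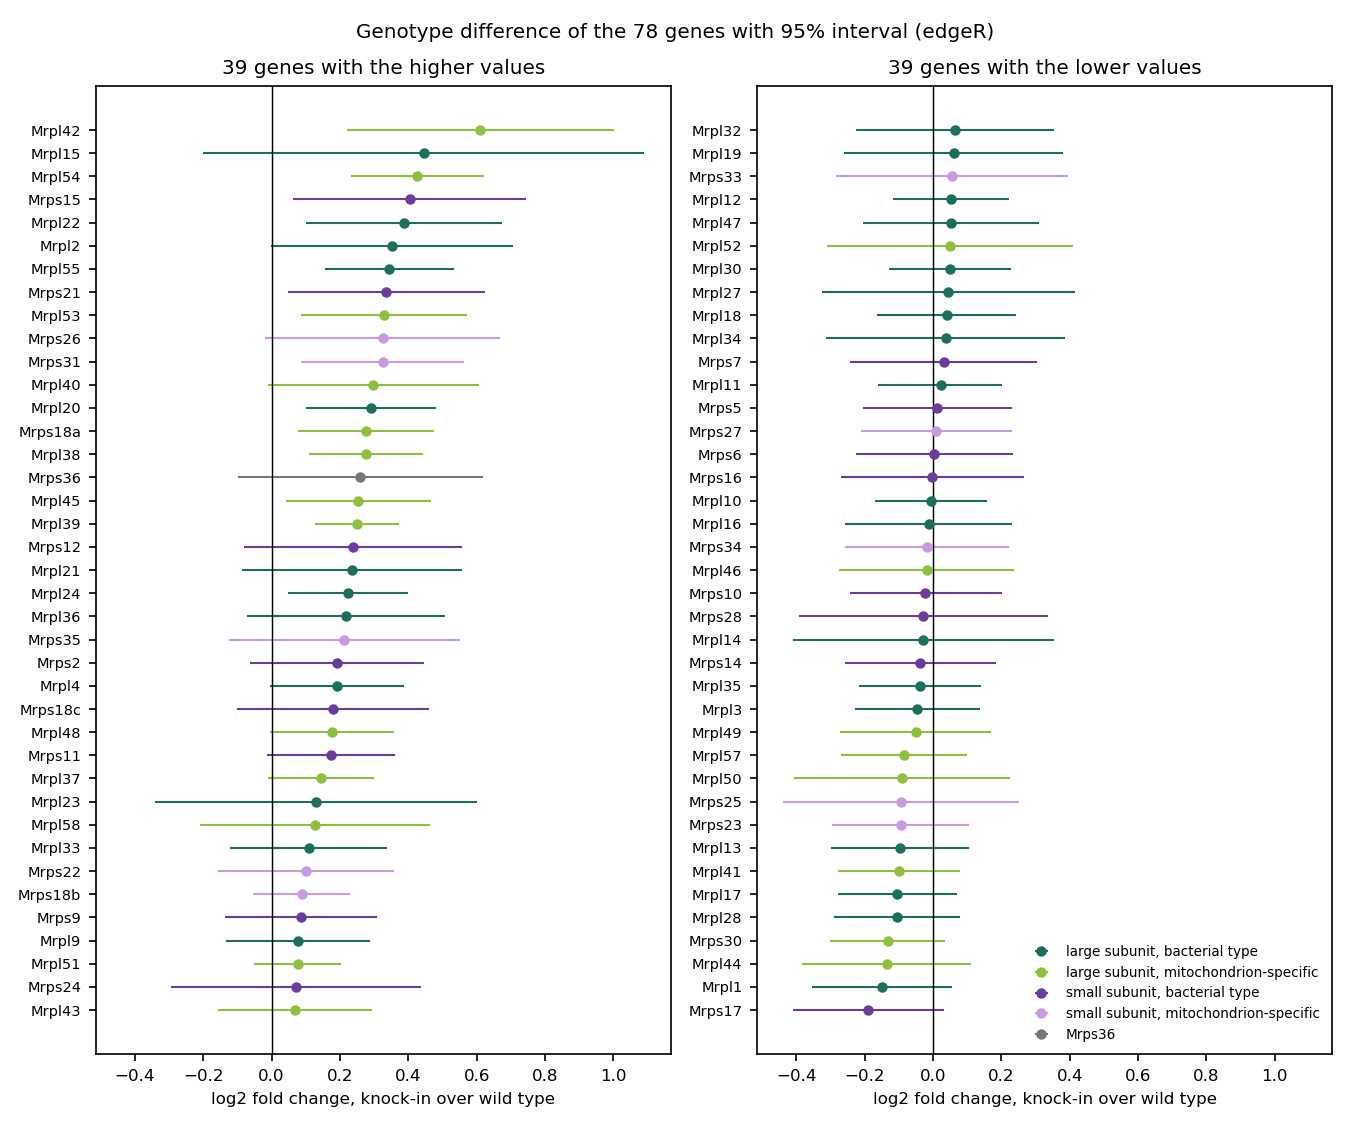
Log2 fold change of knock-in over wild type for each of the 78 genes (points) with its 95% interval from edgeR (lines), ordered by value and coloured by role. The values run from -0.19 for Mrps17 to 0.61 for Mrpl42, and the interval lies wholly above 0 for 14 genes and wholly below 0 for none of the 78.

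Among large-subunit proteins without a bacterial counterpart, 10 of 21 genes had all knock-in libraries above all wild-type libraries, against 10.1% of all tested genes, and the median log2 fold change was 0.13. Mrpl54 had the lowest adjusted p of the 78 genes. Its gene (ENSMUSG00000034932) lies at chr10:81264722-81266926 in mm10. It measured 25.1, 26.1 and 23.5 CPM in wild type and 31.0, 34.7 and 34.5 in knock-in. Every knock-in library was above every wild-type library. The log2 fold change was 0.43 ± 0.09 (SE) with an edgeR adjusted p of 0.0589, which missed the threshold.

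Mrpl39 (ENSMUSG00000022889, chr16:84718281-84735244), a relative of threonyl-tRNA synthetases, is one of the more precisely measured genes. It had 85.8, 85.2 and 83.1 CPM in wild type and 100.4, 102.1 and 99.6 in knock-in. Each genotype kept within a narrow range and the ranges were apart. The log2 fold change was 0.25 ± 0.06 with an edgeR adjusted p of 0.0745. Mrpl55 (ENSMUSG00000036860, chr11:59202486-59206138) belongs instead to the large-subunit proteins with bacterial counterparts. It had 31.9, 29.9 and 27.4 CPM in wild type and 36.5, 39.1 and 37.8 in knock-in. Its libraries did not overlap either, and the log2 fold change was 0.34 ± 0.09 (edgeR adjusted p = 0.104). Mrpl38, at 41.9, 42.2 and 41.0 CPM in wild type and 48.1, 49.2 and 54.2 in knock-in, was likewise apart (log2 fold change 0.28 ± 0.07, edgeR adjusted p = 0.141).

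Mrpl42 (ENSMUSG00000062981, chr10:95480805-95501949) had the largest fitted difference, from a low level. It measured 3.60, 4.64 and 4.09 CPM in wild type and 6.71, 5.38 and 6.77 in knock-in. The knock-in libraries were all higher, but their spread left a log2 fold change of 0.61 ± 0.18 and an edgeR adjusted p of 0.164. Mrpl51 (ENSMUSG00000030335, chr6:125192200-125194392) had 125.8, 123.0 and 119.1 CPM in wild type and 133.9, 124.9 and 128.9 in knock-in. These overlapped, and the log2 fold change of the most abundant gene was 0.08 ± 0.06. Mrpl45, which anchors the ribosome to the inner membrane near the exit tunnel, had 22.1, 19.8 and 23.3 CPM in wild type and 25.02, 25.6 and 27.2 in knock-in, without overlap (0.25 ± 0.10, edgeR adjusted p = 0.296). Mrpl44, a protein with a ribonuclease III-like fold, had 14.2 CPM in each wild-type library and 11.6, 13.4 and 13.7 in knock-in. Its knock-in libraries were all lower, by a log2 fold change of -0.14 ± 0.11 (edgeR adjusted p = 0.676). Mrpl58, a peptidyl-tRNA hydrolase built into the large subunit, gave 0.13 ± 0.15 with overlapping libraries.

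**Figure D3:**
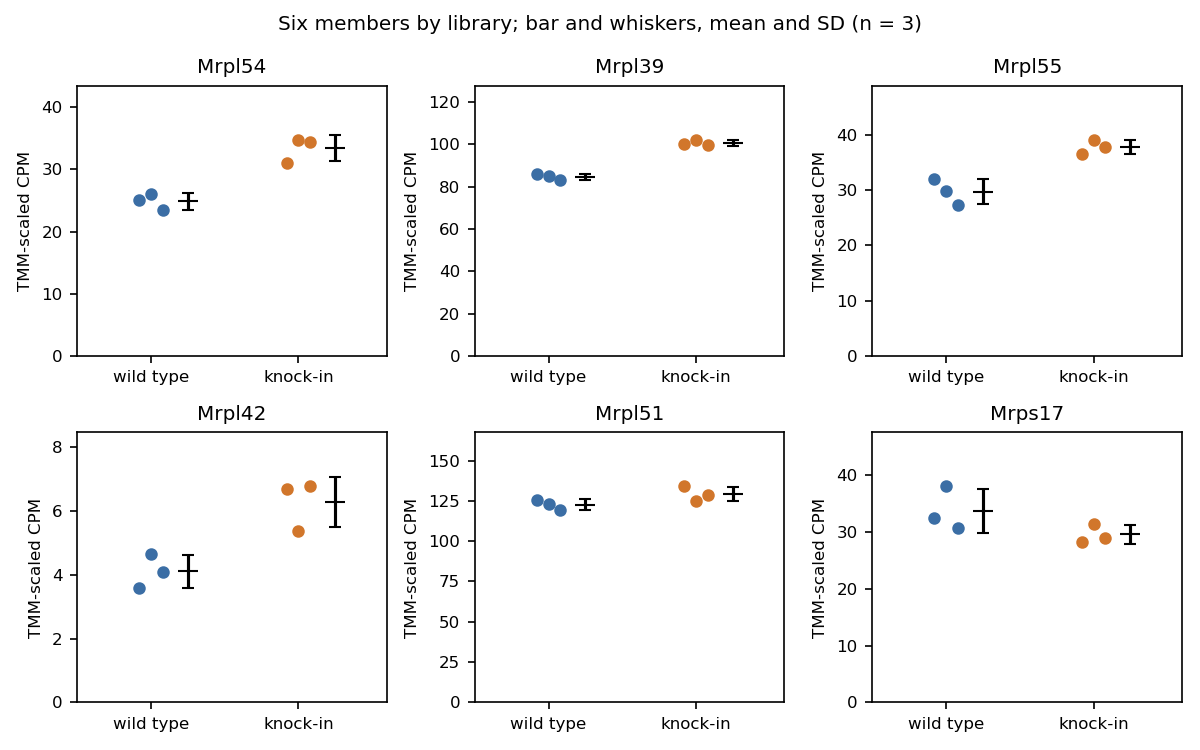
TMM-scaled CPM in each library (points) with the mean and SD of each genotype (n = 3) for Mrpl54, Mrpl39, Mrpl55, Mrpl42, Mrpl51 and Mrps17. The knock-in points lie above all wild-type points for Mrpl54, Mrpl39, Mrpl55 and Mrpl42, and the genotypes overlap for Mrpl51 and Mrps17.

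Among large-subunit proteins with bacterial counterparts, 5 of 30 genes had this order of libraries, against the same 10.1%, and the median log2 fold change was 0.05. Mrpl22, whose bacterial relative lines the peptide exit tunnel, had 9.61, 8.34 and 10.3 CPM in wild type and 11.3, 13.0 and 12.6 in knock-in. The groups were apart, with a log2 fold change of 0.39 ± 0.13 (edgeR adjusted p = 0.231). Mrpl24 had 81.1, 73.7 and 66.4 CPM in wild type and 87.7, 82.8 and 88.0 in knock-in. It was the only gene of the 3 most abundant whose libraries did not overlap, and its edgeR adjusted p was 0.264. Mrpl2, a protein close to the peptidyl transferase centre, had 14.4, 12.2 and 14.3 CPM in wild type and 13.3, 18.1 and 20.6 in knock-in, and these overlapped. Mrpl12, the stalk protein that also binds the mitochondrial RNA polymerase, had 66.7, 58.5 and 60.3 CPM in wild type and 68.2, 61.9 and 62.1 in knock-in. Its overlap left a log2 fold change of 0.05 ± 0.08. Mrpl1 gave the lowest fold change of the large subunit, at 56.3, 53.4 and 61.9 CPM in wild type and 56.1, 45.9 and 52.8 in knock-in. Those libraries overlapped (log2 fold change -0.15 ± 0.09, edgeR adjusted p = 0.553). Mrpl13 gave -0.10 ± 0.09, also with overlapping libraries (edgeR adjusted p = 0.729).

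In the small subunit, 16 genes have bacterial counterparts and 10 are specific to mitochondria. Their median log2 fold changes were 0.05 and 0.07, and all knock-in libraries were above all wild-type libraries for 4 and 2 of them, against 10.1% of all tested genes. Mrps15, an RNA-binding protein of the body of the subunit, had 7.04, 6.60 and 9.03 CPM in wild type and 10.3, 9.15 and 10.5 in knock-in. The groups were apart, though close (log2 fold change 0.40 ± 0.15, edgeR adjusted p = 0.302). Mrps21 had 7.15, 7.97 and 8.24 CPM in wild type and 9.29, 10.7 and 9.55 in knock-in, which were also apart (0.34 ± 0.13, edgeR adjusted p = 0.312). Mrps12, a protein of the decoding centre, had 11.1, 10.8 and 14.2 CPM in wild type and 12.5, 15.7 and 14.2 in knock-in, with overlap. Mrps17 (ENSMUSG00000034211, chr5:129715450-129718712) had 32.4, 38.0 and 30.7 CPM in wild type and 28.3, 31.4 and 29.0 in knock-in. This lowest fold change of the 78 genes, -0.19 ± 0.10, rested on overlapping libraries (edgeR adjusted p = 0.473).

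The Mrps18 paralogs sit in different places in the ribosome, and their symbols do not show it. Mrps18c is the counterpart of the bacterial small-subunit protein, Mrps18b is a second small-subunit protein, and Mrps18a belongs to the large subunit. Mrps18a and Mrps30 were the genes of the Mrps series that carried the large-subunit term among the gene ontology terms of the deposited table. Mrps18a had 30.7, 30.1 and 25.8 CPM in wild type and 34.4, 35.9 and 34.7 in knock-in. Mrps18b had 62.2, 59.9 and 58.96 CPM in wild type and 63.7, 62.6 and 66.1 in knock-in. Mrps18c had 10.04, 9.34 and 9.32 CPM in wild type and 12.2, 10.2 and 10.1 in knock-in. Each of the 3 paralogs had every knock-in library above every wild-type library, by the widest margin for Mrps18a. The log2 fold changes were 0.28 ± 0.09, 0.09 ± 0.06 and 0.18 ± 0.13, with edgeR adjusted p-values of 0.221, 0.627 and 0.613. Whether the paralogs differed in their response was not tested. Mrps30 gave -0.13 ± 0.08 and Mrps36, which is now assigned to the 2-oxoglutarate dehydrogenase complex in place of the ribosome, gave 0.26 ± 0.16.

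The precision of these estimates set what could be seen. The standard error of the log2 fold change had a median of 0.10 over the 78 genes and ran from 0.06 to 0.29. The 95% interval lay within 0.5 of no difference in both directions for 60 of the 78. Genes that were called anywhere in the table had unadjusted p-values of at most 0.000464, which none of the 78 reached.

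Fold changes varied with transcript length over the whole table, and the mitochondrial ribosomal protein genes are short. The length implied by counts and FPKM had a median of 1398 bp for them and 3008 bp for all tested genes. Below 1000 bp, 15 of 17 mitochondrial ribosomal protein genes had a fitted value above 0 and their median was 0.18, beside 0.13 for all 777 tested genes of that length. Between 1000 and 2000 bp the medians were 0.07 for 43 of them and 0.04 for all. At 2000 bp or more they were 0.01 for 18 of them and -0.01 for all. With the trend of all genes on length removed, the median of the 78 became 0.015, 44 of them were above 0, and edgeR again called 0. At an unadjusted p under 0.05, 10 were then higher and 2 lower. The share of all tested genes at that threshold was not taken for this fit, so these counts have no background beside them. Mrpl54 went from 0.43 to 0.27 and Mrpl55 from 0.34 to 0.24, whereas Mrpl39 was at 0.25 in both (edgeR adjusted p = 0.0978).

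The promoter words were set beside the fold changes as a description. The median log2 fold change was 0.08 with the ETS core and 0.05 without it, 0.11 and 0.05 for the YY1 word, and 0.08 and 0.05 for the NRF1 core. It was -0.01 and 0.07 for the TATA word, in 5 genes, and -0.03 and 0.07 for the CRE word, in 2. The printed sequences show the same mixture. Mrpl53, with 2 ETS cores, had a fold change of 0.33 and Mrpl17, with an ETS and an NRF1 core, had -0.10. Mrpl55, with no matched word, had 0.34.

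**Figure D4:**
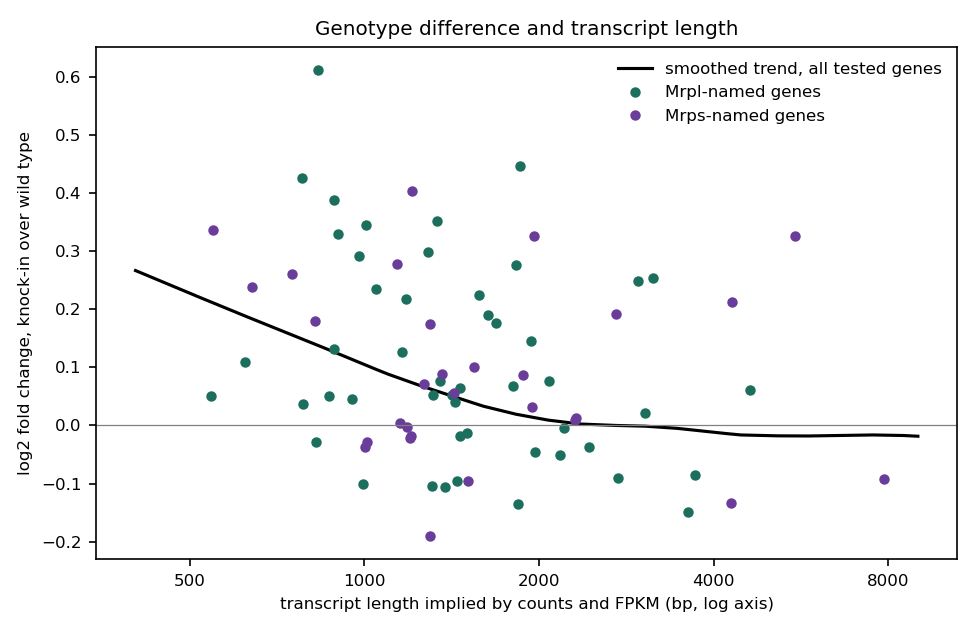
Log2 fold change of knock-in over wild type against implied transcript length in bp (log axis) for the 78 genes (points) with the smoothed trend of all tested genes (line). Points and trend both lie higher at short lengths, with medians of 0.18 and 0.13 below 1000 bp, and close to 0 at 2000 bp or more.

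Other genes of mitochondrial translation were read beside these. Of 5 further ribosome proteins with other names, 0 were called. Gadd45gip1, a large-subunit protein, had 4.53, 4.48 and 6.76 CPM in wild type and 7.59, 9.77 and 10.2 in knock-in. Every knock-in library was higher, and the log2 fold change of 0.81 ± 0.20 exceeded that of each of the 78 genes, with an edgeR adjusted p of 0.101. Among 14 translation factors, 0 were called, and values ran from -0.37 for Guf1, a back-translocating GTPase, to 0.16 for Mtrf1. Among 22 genes that charge mitochondrial tRNAs (synthetases and the amidotransferase subunits Gatb, Gatc and Qrsl1), 0 were called, 7 were above 0 and the median was -0.10. Their range ran from -0.42 for Nars2 to 0.45 for Cars2. Among 26 genes for replication and transcription of mitochondrial DNA and for processing, stability and decay of its RNA, 0 were called, 8 were above 0 and the median was -0.08, with Mterf1a at -0.51 and Polg2 at 0.56. The median over the 78 ribosomal protein genes thus lay above those of the tRNA charging and mitochondrial DNA expression lists, a difference that was not tested. Those 2 lists had longer transcripts, with median implied lengths of 2718 and 2883 bp against 1398 bp for the 78. The part of length in the difference was not tested.

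Of 33 genes listed for assembly and quality control of the mitochondrial ribosome, 1 was called, or 3.03%, against 0.982% of all tested genes. The list was broad and included Lyrm7, Ddx27 and Nsun3, whose main roles lie elsewhere. Mterf3, a factor known to bind mitochondrial DNA and to act in large-subunit assembly, had 32.9, 32.3 and 35.8 CPM in wild type and 24.4, 26.0 and 22.8 in knock-in. It fell by 0.47 ± 0.09 on the log2 scale (edgeR adjusted p = 0.044), with all knock-in libraries below all wild-type libraries. The call was lost when any of the 6 libraries was left out, with edgeR adjusted p-values of 0.0512 to 0.201. The rest of the list ran from -0.58 for Gtpbp6, a recycling factor, to 0.24 for Rbfa, which binds the maturing small subunit.

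The templates that this ribosome translates were read as well. Of 13 protein-coding genes of mitochondrial DNA, 6 were called, or 46.2%, against 0.982% of all tested genes. All 6 rose (mt-Atp6, mt-Co2, mt-Cytb, mt-Nd3, mt-Nd4 and mt-Nd5), and the median of the 13 was 0.41. The sum over the 13 genes was 5956, 6215 and 5464 CPM in wild type and 6911, 7571 and 7153 in knock-in, without overlap. None of the 6 calls held without knock-in library 3, where the lowest edgeR adjusted p among them was 0.0605. With each of the 6 libraries left out in turn, mt-Atp6 was called in 5 of the fits, mt-Co2 and mt-Cytb in 4, mt-Nd3 in 3, mt-Nd4 in 1 and mt-Nd5 in 0. Of the 6, mt-Atp6 and mt-Cytb were the 2 still called after the length trend was removed. Of 79 tested genes for proteins of the cytosolic ribosome, 19 rose and 1 fell, or 25.3%, against the same 0.982%. Their median log2 fold change was 0.19 and their median implied length was 882 bp. The nuclear genes for the mitochondrial ribosome had a lower median than either list, and these differences between lists were not tested.

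**Figure D5:**
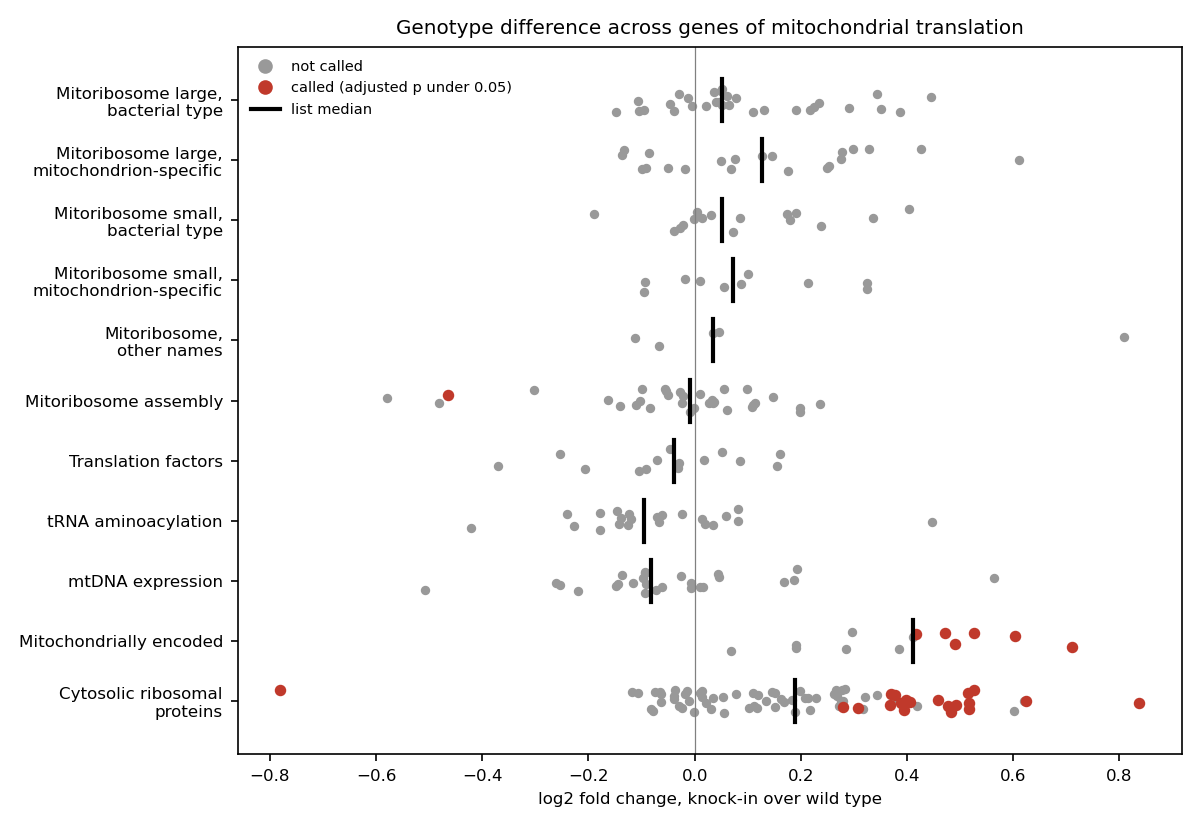
Log2 fold change of knock-in over wild type for each gene (points) of the mitochondrial ribosomal protein genes and of the related lists, with called genes in red and the median of each list as a bar. Called genes appear among the genes of mitochondrial DNA, the cytosolic ribosomal proteins and, as Mterf3 alone, the assembly list.

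Several of the genes start next to a gene on the opposite strand. A coding neighbour in head-to-head orientation, with diverging starts at most 1000 bp apart, was found for 24 of the 69 genes with a promoter entry, or 34.8%, against 11.5% of 12383 tested coding genes. These neighbours included Sars2 at 147 bp from Mrps12 and Twnk, the mitochondrial DNA helicase, at 116 bp from Mrpl43. Mrps11 and Mrpl46 face each other at 42 bp, with log2 fold changes of 0.17 ± 0.08 and -0.02 ± 0.12. Of the 22 neighbours outside the set, 10 were above 0, the median was -0.03, and 1 was called, against 0.982% of all tested genes. That one was Tcp1, a subunit of the cytosolic chaperonin, whose start lies 238 bp from that of Mrpl18. Tcp1 measured 808.7, 769.4 and 764.5 CPM in wild type and 564.8, 440.2 and 575.1 in knock-in, and fell by 0.57 ± 0.09 on the log2 scale (edgeR adjusted p = 0.0268). Mrpl18, a protein that binds the structural RNA of the central protuberance, had 21.3, 21.3 and 23.3 CPM in wild type and 22.0, 21.9 and 23.9 in knock-in, with overlap (0.04 ± 0.09). The full RefSeq spans of Mrpl18 and Tcp1 overlap through a longer Mrpl18 transcript, and the use of strand in counting is not given, so their counts may share reads. The spans of Mrpl43 (chr19:45005014-45006442) and Twnk (chr19:45005663-45012764) overlap too, and the same limit holds for their counts.

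The noncoding table held 61 transcripts under the symbols of 36 of the 78 genes, of which 15 were tested and 0 were called by edgeR, against 0.0968% of all 9301 tested noncoding transcripts. At an unadjusted p under 0.05 there were also 0, against 8.97%. The most abundant was ENSMUST00000136804 of Mrpl51, with 1656, 1657 and 1471 counts in wild type and 1651, 1661 and 1898 in knock-in, followed by a transcript of Mrpl12 with 248 to 308 counts. These transcripts can overlap the coding gene, and the treatment of reads that fit both is not stated. Circular RNAs of the genes were close to absent from the counts: one from Mrpl35 had 3 counts in wild-type library 1, one antisense to Mrps15 had 2 counts in wild-type library 2, and both were at 0 elsewhere. Neither was among the 3887 circles tested, of which 0% were called and 4.91% had an unadjusted p under 0.05.

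In the authors' deposited table, Mrpl54, Mrpl39 and Mrpl55 had adjusted p-values of 0.0109, 0.0292 and 0.048. They were the only genes of the 78 below 0.05 there, against 2% of all 22298 genes in the authors' deposited table. That total includes genes too low to be tested here. The log2 ratios in the authors' deposited table were 0.42, 0.24 and 0.33. Fold changes from FPKM and from counts had opposite signs for 6 of the 78 genes and differed by over 0.2 for Mrpl18, Mrpl35 and Mrpl19. Named pseudogene copies exist in RefSeq for Mrpl23, Mrpl27, Mrpl48 and Mrps36, whose values are uncertain where reads could be shared.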

How the data were processed

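The labels' protocols describe Trizol RNA from frozen testis and a stranded total RNA kit. Whole-number counts per gene, noncoding transcript and circle were deposited by the authors, with FPKM for linear RNAs and RPM for circles. The authors' deposited tables also hold means per genotype (a signal for circles), a log2 ratio and p-values. Per the submitters' processing notes, reads were placed on mm10. The aligner, the counter, the annotation, strand use and the test behind those p-values: not given in the sources used here.

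The deposited counts of 3 knock-in and 3 wild-type libraries were compared with edgeR 4.0.16 (limma 3.58.1, R 4.3.3), using TMM scaling, filterByExpr (minimum count 10, minimum total 15), a two-sided quasi-likelihood test and Benjamini-Hochberg adjustment. Circles needed a count above 0 in 3 libraries. The script was tested on simulated counts. Standard errors come from the F statistic, and implied length is mean CPM over mean FPKM, in bp. Alternatives were RLE factors, DESeq2 1.42.0, limma-voom with quantile scaling, limma on log2(FPKM + 1) and log2(FPKM + 0.1), no filter, a lowess length trend (span 0.3) removed, a replicate block and each library left out.

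The genes and lists were chosen with earlier results of these data known. Genes were named as the 6 most and 3 least abundant, the 8 highest and 8 lowest fold changes, the Mrps18 paralogs and Mrpl12, Mrpl58, Mrps12, Mrpl45 and Mrps36, and, for related lists, called genes or the extremes. Mrpl39, Mrpl38, Mrpl18, Mrps11, Mrpl46, Mrpl35, Mrpl19, Mrpl53, Mrpl43, Tcp1, Twnk and Sars2 were named after values were seen. Of the 78 symbols, 78 matched RefSeq.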

Additional observations from a re-analysis of the deposited data

How the results depend on the processing

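Across all genes edgeR called 155, against 250 with limma-voom on quantile-scaled counts, 451 with DESeq2, 263 with limma on log2(FPKM + 1), 251 with log2(FPKM + 0.1) and 82 with the length trend removed. Leaving out each library in turn gave 11 to 125, the fewest without knock-in library 3 (74, 32 and 20 without wild-type libraries 1, 2 and 3). Of the mitochondrial ribosomal protein genes, limma-voom called 1, DESeq2 called 3 (Mrpl39, Mrpl54 and Mrpl55) and each limma fit on FPKM called 1 (Mrpl54). No setting called any of them lower, and RLE factors, no filter, the length trend, the block and each library left out called 0. Their median log2 fold change was 0.067, against 0.003 for all tested genes. It became 0.045 with limma-voom, against -0.015 for all genes, and 0.015 with the length trend removed, against -0.006. With each library left out it was 0.06 to 0.091, against -0.01 to 0.007. The adjusted p of Mrpl54 ran from 0.0109 to 0.244 over the settings.

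Correlations of deviations were 0.14, 0.08 and 0.03 for wild-type and knock-in libraries of the same number. They ran from -0.12 to 0.05 for libraries of different number. Whether the replicate numbers mark pairs was not tested. With a replicate block, edgeR called 178 genes in all and 0 of the mitochondrial ribosomal protein genes, whose median was 0.061. The replicate block with the length trend removed gave 114, 0 and 0.013. The call of Mterf3 was lost under the block (edgeR adjusted p = 0.0632). Where calls changed, the cause was not tested.

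With 3 libraries a genotype, the median standard error was 0.103 on the log2 scale, and a call needed a difference well above the standard error. Mrpl54, at 0.426 with a standard error of 0.087, was not called (edgeR adjusted p = 0.0589). True differences of this size could thus be missed in a single gene. Counts of the rarest genes, such as Mrpl15 at 26 to 59, were the least precise.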
